A study of Drosophila melanogaster with 20 samples.

Results

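The genes described here encode oxidative phosphorylation proteins of Drosophila melanogaster. They were chosen by symbol, by a rule that held no expression value for the choice of gene. Earlier results of these data were known when they were chosen. A gene was taken where the only symbol of a probe set starts with ND- (complex I), Sdh (complex II), UQCR- (complex III), COX followed by a digit (complex IV) or ATPsyn (complex V). Where a gene had several probe sets, the one whose mean over the 20 arrays was highest stood for it. This gave 73 genes of 11982, with 32 in complex I, 7 in complex II, 6 in complex III, 14 in complex IV and 14 in complex V. By their symbols and known roles, 51 were subunits of the complexes, 21 were copies (a gene named as another subunit gene with an L, at times with a number, added) and 1 was an assembly factor, Sdhaf3. ND-30, SdhA, UQCR-C1 and UQCR-C2 were not analysed here.

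Expression was measured on single-channel Affymetrix arrays of adult brain, with 5 arrays in each of 4 groups. Surface glia were sorted as fluorescent cells of the 9.137-GFP line, all glia as those of the REPO-GFP line and neurons as those of the ELAV-GFP line. Each sorted replicate came from 10 to 15 pooled brains. Whole brains were those of Canton S wild-type flies, with 5 brains pooled per replicate. Male and female flies were mixed, and replicates came from different bottles and days, per the labels. Flies were raised at 16 degrees or at room temperature. Brains for sorting were digested with 2 mg/mL collagenase at 37 degrees, and the labels do not say whether whole brains were. Shaking differed by line, at 500 rpm for 5 min for surface glia, 500 rpm for 20 min for all glia and 1000 rpm for 20 min for neurons. Line, dissociation and cell type therefore cannot be told apart, and in the comparisons with whole brain neither can sorting. The labels do not give an age.

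Oxidative phosphorylation takes place in the inner mitochondrial membrane. Complex I takes electrons from NADH and complex II takes them from succinate, and both pass them to ubiquinone. Complex III moves them on to cytochrome c, and complex IV hands them to oxygen. Complexes I, III and IV pump protons as they work, and complex V, the ATP synthase, lets the protons back through to make ATP. In the insect brain, glia are known for breaking down sugar and supplying products of it to neurons, which depend on mitochondria for ATP, and the surface glia form the blood-brain barrier.

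Arrays of a group correlated with one another at 0.781 to 0.896 in surface glia, 0.763 to 0.937 in all glia, 0.966 to 0.978 in neurons and 0.993 to 0.997 in whole brain. The glial marker repo averaged 10.66 ± 0.44 in surface glia, 7.85 ± 0.66 in all glia, 5.62 ± 0.94 in neurons and 10.11 ± 0.31 in whole brain (log2 signal, SD, n = 5 each). The neuronal marker elav averaged 12.02 ± 0.69, 12.60 ± 0.41, 13.04 ± 0.13 and 12.78 ± 0.07 in the same 4 groups, so elav signal was present in both glial sorts, and the arrays labelled all glia held less repo signal than whole brain. Of 11 glia markers, repo included, 4 were above and 7 below whole brain in surface glia, with a median log2 difference of -0.51. In all glia 1 was above and 10 below (median -2.10), and in neurons 0 were above and 11 below (median -5.29). Of 8 surface glia markers, 7 were above whole brain in surface glia, 5 in all glia and 1 in neurons. In bulk samples, fewer cells of a type and less RNA per cell cannot be told apart.

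Nearly all subunits gave clear signal in all 4 groups. Of 51 subunits, 50 were on all 20 arrays above a limit set at the 95th percentile of 44 negative controls. ND-B8, an accessory subunit of complex I, was within the negative controls in every group, with means of 3.06, 2.68 and 2.56 in surface glia, all glia and neurons, and 2.07 in whole brain. The median of the subunits' group means was 9.91 in surface glia, 9.72 in all glia, 9.85 in neurons and 10.82 in whole brain (log2 signal). The highest of the 4 means was that of surface glia for 8 of the 51 subunits, all glia for 5, neurons for 4 and whole brain for 34. The subunits' median SD between arrays was 0.41 in surface glia, 0.35 in all glia, 0.24 in neurons and 0.13 in whole brain.

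**Figure D1:**
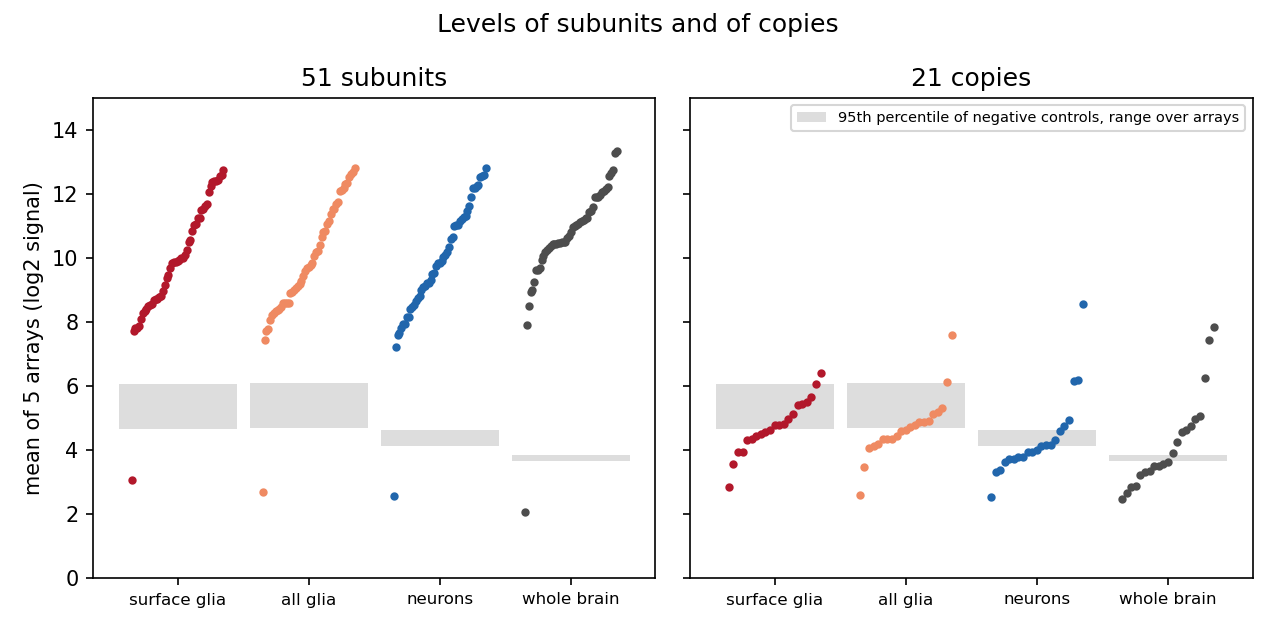
Group means of the 51 subunits (left) and the 21 copies (right), in log2 signal, each point 1 gene and the grey band the range over arrays of the 95th percentile of the negative controls. All subunits but ND-B8 lie above the band in each group, while many copies lie within or under it.

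Between sorted groups, 1 of the 51 subunits was called, in 1 of 3 comparisons. Between surface glia and neurons, 0 of the 51 subunits were called in either direction, where a call needed an adjusted p under 0.05 in limma and a log2 difference of at least 1, which is a doubling or halving of signal. In the same comparison 10.4% of all probe sets were called higher and 15% lower. Among the 3145 genes with a mean of at least 8, the range that holds 49 of the 73 genes described here, these shares were 8.11% and 30.8%. The median difference of the subunits was 0.05, against -0.73 for genes with a mean of at least 8 and 0.36 for all probe sets. A call that was missed does not show equal levels. For 33 of the 51 subunits, however, the 95% interval of the difference lay wholly between -1 and 1. So did that of 15.8% of genes with a mean of at least 8. Like all intervals given here, these use 1 spread per probe set over all 4 groups, including whole brain, whose arrays varied least. They can therefore be too narrow for groups that varied more. At an unadjusted p under 0.05, limma gave 8 of the 51, all higher in surface glia. At an adjusted p under 0.05, a stricter limit, 31.6% of all probe sets and 10.8% of genes with a mean of at least 8 were higher there. When the arrays were quantile-normalized once more, 5 subunits were called higher in surface glia and 0 lower. The share of all probe sets after that normalization is not given here. ND-ACP, uncalled by the probe set that stood for it, had 1 of its 3 probe sets called lower in surface glia than in neurons. Its 3 differences ran from -2.26 to 0.97. The other genes with several probe sets had none called between sorted groups.

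Without the minimum difference, 4 subunits passed the adjusted p in limma, all of them with surface glia above neurons, a direction in which 31.6% of all probe sets passed. UQCR-Q, a small complex III subunit bound to cytochrome b, differed by 0.82 ± 0.18 (log2 difference ± SE, adjusted p = 0.00257). ND-B14.5A, an accessory subunit of complex I, differed by 0.88 ± 0.25 (adjusted p = 0.0101). ND-39, an accessory subunit near the ubiquinone site, differed by 0.64 ± 0.19 (adjusted p = 0.0142), and ATPsyndelta of the central stalk of complex V by 0.78 ± 0.28 (adjusted p = 0.0273). The arrays of surface glia lay wholly above those of neurons for UQCR-Q and ND-B14.5A, as they did for 21.1% of all probe sets, and the groups overlapped for the other two.

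Between surface glia and all glia, limma called 0 subunits in either direction, where 2.46% of all probe sets were called higher and 2.29% lower. The 51 differences lay between -0.49 and 0.74 with a median of 0.05, and 37 of the 51 intervals lay within 1 log2 unit of 0. At an unadjusted p under 0.05, limma gave 2 of the 51, ND-13A and ND-B14.5A, both higher in surface glia. At the stricter adjusted p under 0.05, 2.74% of all probe sets and 5.69% of genes with a mean of at least 8 were higher there. With replicate 4 of both glial groups left out, 1 subunit was called lower in surface glia.

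Between all glia and neurons, SdhB was the only subunit called. SdhB carries the iron-sulphur clusters that lead electrons through complex II. Its signal was 10.34, 9.00, 9.37, 8.69 and 7.98 in all glia, against 7.56, 8.74, 7.95, 7.48 and 7.90 in neurons. Replicate 1 of all glia was the highest of these arrays, and the groups overlapped. The difference was 1.15 ± 0.35 (adjusted p = 0.0388 in limma), and 3.17% of all probe sets were called higher and 4.35% lower. This call was lost in 10 of the 20 fits that left out 1 array (0.83, adjusted p = 0.057 without replicate 1 of all glia), in a fit of the 2 groups alone (adjusted p = 0.0935) and when each array was centred on its median (0.996, adjusted p = 0.065). The other complex II subunits here, the membrane anchors SdhC and SdhD, differed by -0.12 and -0.20 between all glia and neurons.

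**Figure D2:**
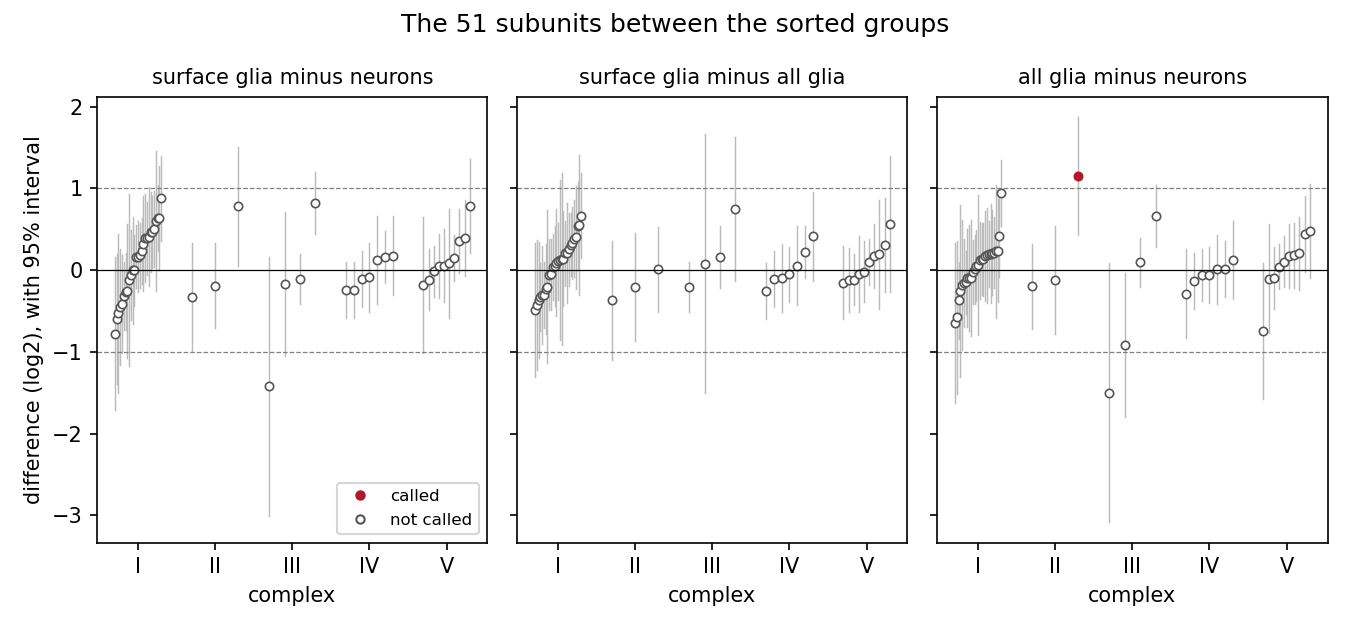
Fitted log2 differences of the 51 subunits between sorted groups by complex, with 95% intervals and dashed lines at -1 and 1. Most points lie between the dashed lines, and SdhB in all glia minus neurons, at 1.15, is the only filled (called) point.

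The 7 complex IV subunits differed by -0.24 to 0.18 between surface glia and neurons and by -0.29 to 0.12 between all glia and neurons. For all 7 the intervals lay within 1 log2 unit of 0 in both, as well as in surface glia minus all glia. COX4, the largest nuclear-encoded subunit, averaged 12.41 ± 0.18 in surface glia, 12.19 ± 0.23 in all glia, 12.25 ± 0.08 in neurons and 12.08 ± 0.06 in whole brain. COX5A, a subunit on the matrix side, averaged 12.07 ± 0.13, 12.12 ± 0.31, 12.18 ± 0.17 and 12.75 ± 0.05 in the same order (SD, n = 5 each). UQCR-11, the hinge subunit of complex III, had an SD of 1.39 in surface glia, 1.90 in all glia and 1.08 in neurons, against 0.19 in whole brain. It was 1.42 lower in surface glia than in neurons, with an interval from -3.01 to 0.16 (adjusted p = 0.118), and was not called in any comparison.

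Against whole brain the picture was different, and most of the subunits called lower were of complex I. In surface glia 20 of the 51 subunits were called lower than in whole brain and 0 higher, where 19.3% of all probe sets were called lower and 31.6% higher. In all glia 19 were called lower and 3 higher, where 14.8% of all probe sets were called lower and 24.6% higher. In neurons 21 were called lower and 0 higher, where 9.83% of all probe sets were called lower and 3.79% higher. A second quantile normalization moved the median of all probe sets by -0.21 in surface glia and -0.15 in all glia. The subunits moved the other way: their median relative to whole brain, averaged over arrays, went from -0.65 to -0.29 and from -0.72 to -0.34. The counts were then 15 lower and 5 higher in surface glia and 15 lower and 5 higher in all glia. In neurons the subunit median went from -0.72 to -0.55, and 15 of 27 complex I subunits were still called lower. These comparisons share their 5 whole-brain arrays and are not independent. Among genes with a mean of at least 8, 34.1%, 21.9% and 13.1% were called lower in surface glia, all glia and neurons, and of the 49 genes described here in that range 20, 18 and 20 were.

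Complex I held most of these calls. Of its 27 subunits, 15 were lower in surface glia, 15 in all glia and 15 in neurons, each against whole brain, with median differences of -1.16, -1.11 and -1.30. In complexes II, III and IV, 1 subunit of each was called lower in each sorted group, of 3, 4 and 7. Complex V had 2 of 10 lower in surface glia, 1 in all glia and 3 in neurons, with medians of -0.38, -0.46 and -0.50. Such calls were more frequent among subunits with a lower mean over all arrays. That mean includes the sorted arrays, so a fall in them lowers it by itself. At a mean of 10.09 or less, 12, 13 and 13 of 19 complex I subunits were called lower in surface glia, all glia and neurons. Of the 7 subunits of complexes II to V at that level, 3, 3 and 4 were. Above it, complex I had 3, 2 and 2 of 8 called lower, and complexes II to V had 2, 1 and 2 of 17. Because the falls enter the mean, this split cannot separate signal level from the falls, and the part of signal level was not tested. The median over a complex's subunits, taken on each array relative to the whole-brain mean, put complex I at -1.11 ± 0.19 in surface glia, -1.25 ± 0.25 in all glia, -1.35 ± 0.23 in neurons and -0.01 ± 0.10 in whole brain (SD, n = 5 arrays each). For complex IV the same medians were -0.18 ± 0.30, -0.18 ± 0.09, -0.09 ± 0.14 and 0.01 ± 0.08. Each of the 15 sorted arrays lay below each whole-brain array for complex I. With the values normalized once more by quantiles, the complex I means were -0.69 in surface glia and -0.77 in all glia, and 11 and 12 of its 27 subunits were called lower there. For complex IV all 3 sorted groups overlapped with whole brain, and with the values normalized once more by quantiles its 3 sorted means turned positive (0.13, 0.18 and 0.05).

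**Figure D3:**
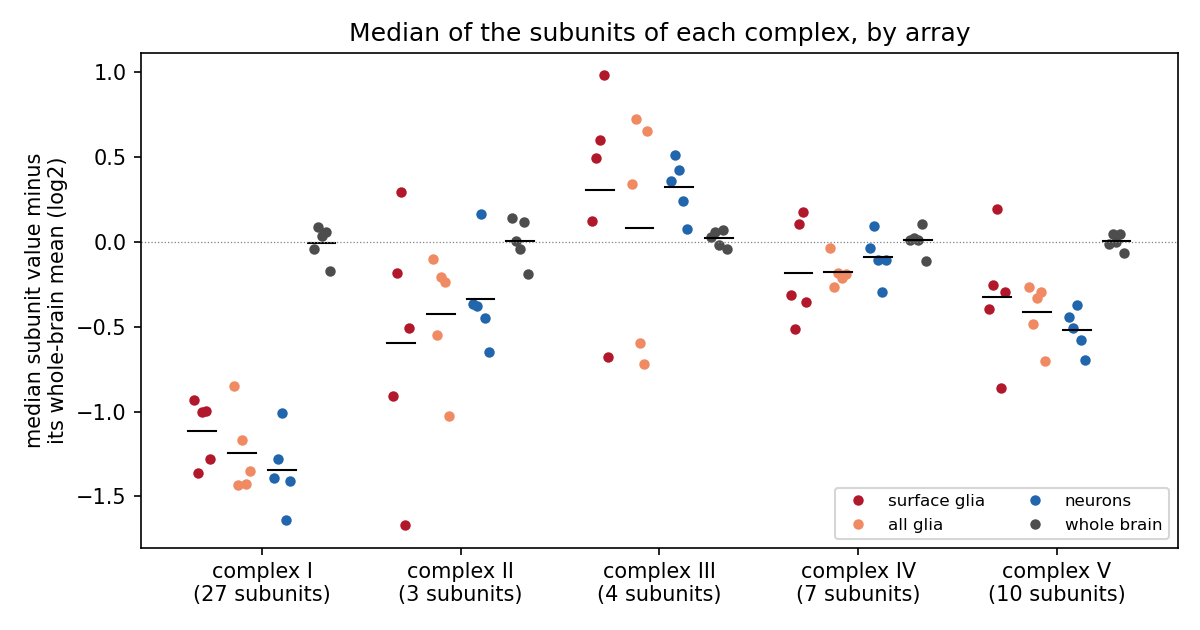
Median over the subunits of each complex of the log2 value minus that subunit's whole-brain mean, 1 point per array and a bar at the mean of 5. For complex I the sorted arrays lie between -1.64 and -0.85, below the whole-brain arrays, whereas those of complexes III and IV scatter on both sides of 0.

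Within complex I the lower subunits came from both arms of the enzyme. ND-PDSW, an accessory subunit of the membrane arm, was 7.45, 7.77, 9.28, 6.47 and 7.60 in surface glia, 8.18, 8.06, 8.30, 8.09 and 7.75 in all glia, and 8.04, 8.0, 8.74, 8.11 and 7.95 in neurons. Whole brain had 11.28, 11.52, 11.28, 11.02 and 11.11. All sorted arrays lay below all whole-brain arrays, and ND-PDSW fell by 3.53 ± 0.34 in surface glia, 3.17 ± 0.34 in all glia and 3.07 ± 0.34 in neurons on the log2 scale (SE, adjusted p at most 1.4e-06 in limma).

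ND-51 is the flavin subunit that takes the electrons from NADH. It was 9.49, 8.40, 9.27, 8.38 and 7.83 in surface glia, 8.52, 8.91, 9.58, 9.18 and 8.73 in all glia, and 9.37, 9.22, 9.28, 9.07 and 8.49 in neurons, against 10.83, 11.27, 11.06, 11.03 and 10.73 in whole brain. No sorted array reached the lowest whole-brain array. ND-51 fell by 2.31, 2.00 and 1.90 (SE 0.29, adjusted p at most 7.04e-05 in limma). ND-19, an accessory subunit, fell by 3.25, 2.82 and 2.65 in surface glia, all glia and neurons (SE 0.38).

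Not all of complex I was lower. ND-75, the large iron-sulphur subunit that sits beside ND-51 in the electron input arm, averaged 9.46 ± 0.34 in surface glia, 9.13 ± 0.41 in all glia and 8.99 ± 0.20 in neurons, against 9.94 ± 0.15 in whole brain. Its differences of -0.48, -0.82 and -0.95 passed the adjusted p (0.0493, 0.003 and 0.00312 in limma) and missed the minimum size. ND-B17 was called higher in all glia, by 1.03 (adjusted p = 0.0314 in limma), a call lost in 7 of the 20 fits that left out 1 array (0.93 at the lowest). It is taken up below with its other probe set.

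In complex II the 3 subunits went different ways. SdhB fell by 1.73 in surface glia, 1.36 in all glia and 2.51 in neurons (SE 0.35, adjusted p = 0.000322, 0.00279 and 2.45e-05 in limma) from whole-brain arrays at 10.61, 10.53, 10.38, 10.33 and 10.35. Only replicate 1 of all glia, at 10.34, reached into the whole-brain range. SdhC, a membrane anchor, differed by -0.66, -0.45 and -0.33, with intervals of -1.32 to -0.00054, -1.11 to 0.21 and -1.0 to 0.33, and was not called. SdhD, the other anchor, was 0.53, 0.53 and 0.72 above whole brain and was not called either.

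In complex III, UQCR-14, a small subunit on the matrix side, was the subunit called lower. It was 10.11, 10.09, 10.18, 8.45 and 9.57 in surface glia, 9.73, 8.83, 9.26, 7.00 and 9.86 in all glia, and 9.68, 9.58, 9.74, 10.31 and 9.95 in neurons, against 11.38, 11.55, 11.42, 11.46 and 11.37 in whole brain. Replicate 4 was the lowest array in both glial groups, and no sorted array overlapped with whole brain. The falls were 1.76, 2.50 and 1.58 (SE 0.42, adjusted p = 0.00138, 0.000125 and 0.0115 in limma). UQCR-6.4, a small membrane subunit, went the other way: it averaged 12.41 ± 0.19 in surface glia, 12.61 ± 0.10 in all glia and 12.52 ± 0.10 in neurons, against 11.61 ± 0.14 in whole brain. It was called higher in all glia, by 1.01 ± 0.15 (adjusted p = 3.81e-05 in limma), a call lost by size in 3 of the 20 fits that left out 1 array (0.95 at the lowest). Its differences of 0.80 in surface glia and 0.91 in neurons missed the minimum size.

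In complex IV the call in each sorted group was COX7C, a small membrane subunit. The chosen probe set was 8.83, 8.68, 9.34, 8.58 and 8.55 in surface glia, 8.90, 8.5, 8.74, 7.98 and 7.80 in all glia, and 8.90, 9.13, 9.12, 8.05 and 8.15 in neurons, against 11.88, 11.96, 12.02, 12.07 and 11.84 in whole brain. Its falls of 3.16, 3.57 and 3.28 (SE 0.26, adjusted p at most 3.34e-08 in limma) are not shared by the gene's other probe set, described below. COX5A was 0.68, 0.62 and 0.57 lower in surface glia, all glia and neurons than in whole brain, under the minimum size (adjusted p = 0.00141, 0.00329 and 0.0176 in limma). COX4 was 0.34, 0.11 and 0.18 higher and COX7A 0.29, 0.34 and 0.47 lower, none of them called.

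In complex V, ATPsynCF6 and, in some sorted groups, ATPsynO and ATPsyndelta were called lower. ATPsynCF6, coupling factor 6 of the stator, fell by 1.40 in surface glia, 1.97 in all glia and 1.22 in neurons (SE 0.40, adjusted p = 0.00469, 0.000497 and 0.0329 in limma). ATPsynO, which joins the catalytic head to the stator, averaged 11.05 ± 0.35 in surface glia, 11.17 ± 0.24 in all glia and 10.99 ± 0.19 in neurons, against 12.11 ± 0.15 in whole brain. It fell by 1.06 in surface glia and 1.11 in neurons, and its difference of -0.94 in all glia missed the minimum size. The surface glia call was lost by size in 2 of the 20 fits that left out 1 array (-0.94 at the smallest). With a second quantile normalization both calls were lost by size (-0.74 and -0.98). With each array centred on its median the neuron call was lost by size (-0.97). ATPsyndelta fell by 1.41 in neurons (adjusted p = 0.00105 in limma) and was 0.63 and 0.93 lower, uncalled, in surface glia and all glia. ATPsynC of the rotor ring was 0.69, 0.57 and 0.68 lower in surface glia, all glia and neurons, again under the minimum size. ATPsynbeta, the catalytic subunit, and ATPsyngamma, the rotor shaft, were higher by 0.69 to 1.00 in each sorted group, and ATPsyngamma was called in all glia (1.00 ± 0.21, adjusted p = 0.000704). Of the 20 fits that left out 1 array, the ATPsyngamma call was lost by size in 6 (0.86 at the lowest) and the ATPsynCF6 call in neurons in 10 (adjusted p up to 0.0637).

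**Figure D4:**
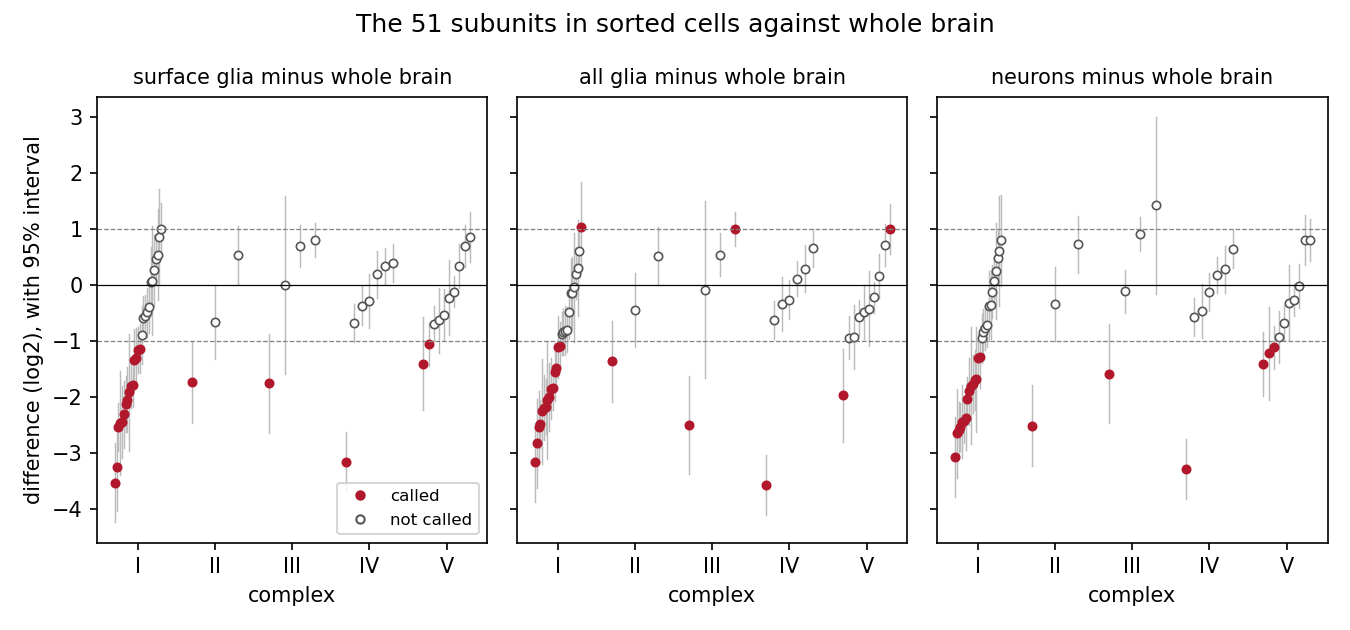
Fitted log2 differences of the 51 subunits from whole brain by complex in surface glia, all glia and neurons, with 95% intervals and dashed lines at -1 and 1. Complex I holds 15 filled (called) points below -1 in each panel, and the filled points above 1 are in all glia alone (ND-B17, UQCR-6.4 and ATPsyngamma).

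For genes with several probe sets, the direction against whole brain depended on which one was read. The 6 genes with more than 1 probe set, ATPsynbeta, ATPsyngamma, COX7B, COX7C, ND-ACP and ND-B17, each had probe sets on both sides of whole brain in each sorted group. For ATPsynbeta the chosen probe set was 0.69, 0.71 and 0.81 above whole brain in surface glia, all glia and neurons, and the other was called lower, by 1.39, 1.58 and 1.77. For ATPsyngamma the other probe set was called lower by 1.59, 1.39 and 2.11. ND-B17 was 0.54, 1.03 and 0.80 above whole brain by the chosen probe set and fell by 2.58, 3.55 and 3.57 by the other. COX7C, by contrast, had a second probe set 0.78, 0.08 and 1.68 above whole brain. That probe set was dim, above the negative controls on 1, 1 and 3 of the 5 sorted arrays of each group and on 1 of 5 in whole brain. Only 6 of the 73 genes allowed this check.

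**Figure D5:**
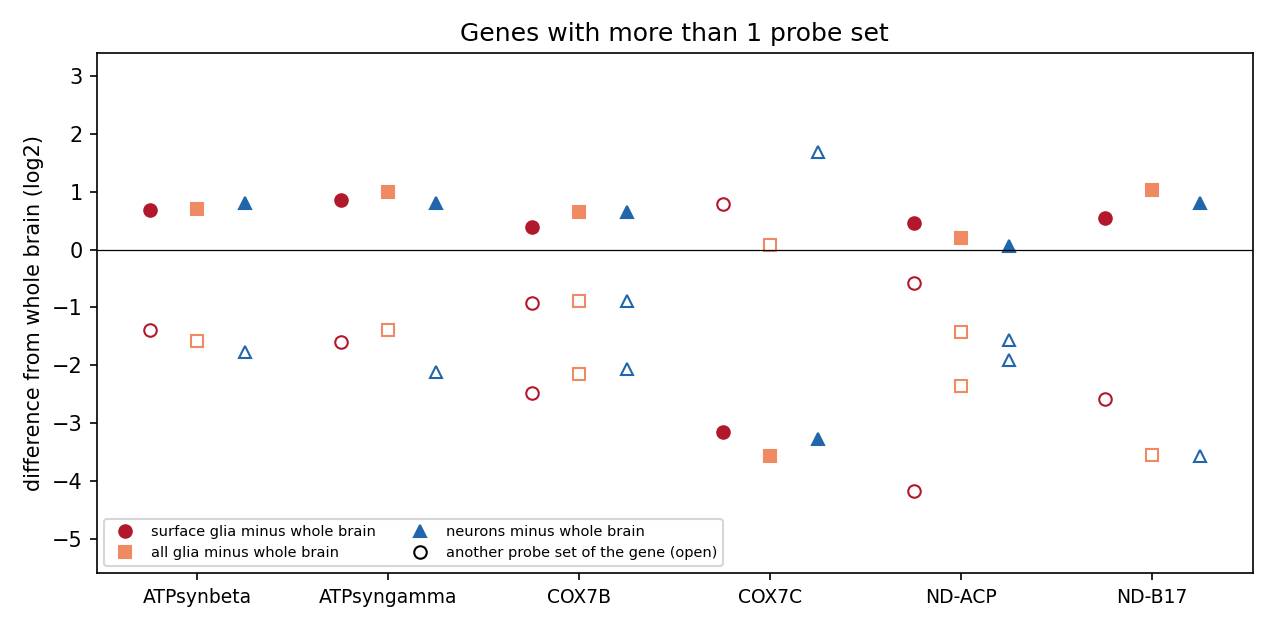
Fitted log2 differences from whole brain for each probe set of the 6 genes with more than 1, filled where the probe set was the one chosen. Every gene has points above and below 0, with ND-B17 at 1.03 and -3.55 in all glia.

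The 3' minus 5' signal of control genes averaged higher in each sorted group than in whole brain. The 3' minus 5' signal of eIF-4a, a control for RNA integrity on the array, was 4.06 ± 0.32 in surface glia, 4.24 ± 1.36 in all glia, 4.96 ± 0.47 in neurons and 2.25 ± 0.23 in whole brain (log2, SD, n = 5 each). That of GAPDH was 3.65 ± 0.65, 4.28 ± 0.62, 4.52 ± 0.53 and 3.22 ± 0.15. The part of RNA integrity in these results was not tested.

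Fewer of the copies gave signal above the negative controls. Such copies are in several fly gene families known for expression in the testis, and 7 of the 21 were within the negative controls in all 4 groups. On all arrays of a group, 2 copies were above the controls in surface glia, 1 in all glia, 5 in neurons and 10 in whole brain. The limit set by the controls ran from 4.67 to 6.05 in surface glia and from 4.7 to 6.08 in all glia. It was lower in neurons (4.12 to 4.63) and whole brain (3.64 to 3.83). The median of the copies' group means ran the other way, at 4.78, 4.63, 4 and 3.64 in the same order. These counts therefore do not show that more copies were expressed in whole brain. Against whole brain, 9 copies were called higher and 2 lower in surface glia, 8 higher and 1 lower in all glia, and 0 higher and 1 lower in neurons. Of all probe sets, 31.6% were called higher and 19.3% lower in surface glia, 24.6% and 14.8% in all glia, and 3.79% and 9.83% in neurons. After a second quantile normalization, 2 copies were called higher in surface glia and 0 in all glia, and without replicate 4 of all glia 5 were called higher in all glia. The negative controls themselves were called higher for 32 of 44 (72.7%) in surface glia and 28 of 44 (63.6%) in all glia, with medians of 1.18 and 1.12. Of the 9 copies called higher in surface glia, 5 were within the controls in both groups, so no size is given for them: SdhBL, SdhCL, UQCR-14L, COX6AL and ATPsynbetaL. ATPsynepsilonL, a copy of sun, the subunit epsilon gene, was higher by 1.60 in surface glia. ND-20L, a copy of ND-20, and ND-24L were called higher there but exceeded the controls on only 2 and 1 of the 5 surface glia arrays, and both calls were lost with a second quantile normalization (0.83 and 0.70). The part of the higher control signal in these calls was not tested.

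ATPsynGL, a copy of the gene of membrane subunit g, was above the controls on all 5 arrays in surface glia, on 1 each in all glia and neurons and on 0 in whole brain. It was 4.88, 5.09, 5.18, 6.53 and 5.46 in surface glia and 4.08, 4.96, 4.91, 5.94 and 4.67 in all glia, against 4.12, 3.91, 4.15, 4.05 and 4.43 in neurons and 3.48, 3.50, 3.52, 3.47 and 3.47 in whole brain. All 5 surface glia arrays were above all 5 neuron arrays, and the gene was called higher in surface glia (adjusted p = 0.00344 in limma). No size is given, because the neuron mean lay under the control limit. Against whole brain, where ATPsynGL was within the controls, it was higher by at least 1.70 in surface glia. In surface glia minus neurons 6 of the 44 negative controls (13.6%) were called higher too.

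Of the copies called lower, ATPsynCF6L, a copy of ATPsynCF6, fell in all 3 sorted groups, by 1.80, 1.72 and 1.68 in surface glia, all glia and neurons (SE 0.37, adjusted p = 0.000416, 0.000817 and 0.00307 in limma). The highest of the 15 sorted arrays had 7.35, while whole brain had 7.62, 8.03, 7.76, 7.84 and 8.04. COX5BL, a copy of COX5B, was 3.37, 4.07, 4.48, 4.07 and 3.68 in surface glia, within the negative controls. It was 7.38, 6.75, 5.69, 4.75 and 6.15 in neurons and 6.26, 6.25, 6.19, 6.19 and 6.38 in whole brain. COX5BL was therefore lower in surface glia by at least 0.92 than in neurons and by at least 1.03 than in whole brain (adjusted p = 0.0103 and 0.0033 in limma). In all glia it ranged from 3.34 to 7.90 and was not called. COX7AL2, a copy of COX7A, was called higher in surface glia relative to neurons (adjusted p = 0.0331 in limma), but it exceeded the controls on only 2 of 5 surface glia arrays and 1 of 5 neuron arrays. That call rested on replicate 3, at 9.45 where the other 4 surface glia arrays lay between 4.10 and 5.61, and was lost without it, as it was in 4 other fits that left out 1 array. UQCR-11L, a copy of UQCR-11, ranged from 3.75 to 10.33 in surface glia, above the controls on 2 of 5 arrays, and from 8.08 to 9.08 in neurons, and the difference of -2.16 was not called (interval -4.28 to -0.04, adjusted p = 0.0798 in limma).

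Sdhaf3 was the one gene of the 73 whose surface glia level was called lower against all 3 other groups. Its protein shields the iron-sulphur subunit of complex II, the SdhB product, while the complex is put together. Sdhaf3 was 4.82, 6.90, 5.89, 5.18 and 5.86 in surface glia and 7.66, 6.68, 7.53, 7.74 and 7.53 in all glia. Neurons had 7.26, 7.08, 6.53, 7.45 and 7.26, and whole brain had 7.88, 8.0, 8.32, 8.27 and 8.0. Replicate 2 of surface glia reached into the ranges of all glia and neurons, and no surface glia array reached whole brain. Sdhaf3 fell by 1.70 against all glia, 1.39 against neurons and 2.36 against whole brain (SE 0.31, adjusted p = 0.00285, 0.0027 and 8.49e-06 in limma). In these comparisons 2.29%, 15% and 19.3% of all probe sets were called lower. Sdhaf3 was not above the negative controls on all 5 surface glia arrays, whose control limits ran from 4.67 to 6.05, so these sizes are uncertain. The call against all glia was lost in the fit of those 2 groups alone (adjusted p = 0.126). In all glia and neurons it was 0.67 and 0.98 lower than in whole brain, uncalled.

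Genes of oxidative phosphorylation outside the symbol rule were listed separately. Of 7 measured, limma called 0 between sorted groups. At an unadjusted p under 0.05 limma gave 1 in surface glia minus all glia and 1 in all glia minus neurons. It gave 0 in surface glia minus neurons. In that order, 2.46%, 3.17% and 10.4% of all probe sets were called higher and 2.29%, 4.35% and 15% lower. At those shares, 0 calls among 7 genes carry little weight. RFeSP and levy were called lower against whole brain in each sorted group, where 19.3%, 14.8% and 9.83% of all probe sets were. RFeSP, the Rieske iron-sulphur protein of complex III, fell by 2.72 in surface glia, 2.73 in all glia and 3.20 in neurons. The gene levy, which encodes subunit 6A of complex IV, fell by 2.51, 2.87 and 2.71. Cyt-c1 of complex III, cype of complex IV and blw, the alpha subunit of complex V, were not called. Of 9 assembly and maturation factors, 4 were called lower against whole brain in surface glia, 3 in all glia and 1 in neurons, and 0 higher, where 19.3%, 14.8% and 9.83% of all probe sets were called lower. Scox, which delivers copper to complex IV, was in surface glia 2.42 below whole brain and 2.39 below neurons. CIA30, a complex I assembly factor, fell by 1.11, 1.34 and 1.56 in surface glia, all glia and neurons against whole brain.

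Other pathways of energy metabolism gave calls between surface glia and neurons. Of 11 glycolysis genes, 5 were called higher and 0 lower in surface glia relative to neurons, with a median difference of 0.98, where 10.4% of all probe sets were called higher and their median was 0.36. Gapdh1 was higher by 1.56 ± 0.21, Pfk, which commits sugar to glycolysis, by 1.52 ± 0.21, and Hex-C, a hexokinase, by 1.42 ± 0.51. Pfk was 10.42, 10.63, 10.81, 10.97 and 9.77 on the surface glia arrays, while the neuron arrays had 9.27, 8.74, 9.06, 8.87 and 9.06, with no overlap. Against all glia 1 glycolysis gene was called, Pglym78, higher by 1.16 in surface glia, where 2.46% of all probe sets were called higher. Against whole brain 4 were higher in surface glia, 1 higher in all glia, and 3 lower in neurons, where the shares of all probe sets were 31.6%, 24.6% and 9.83%.

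Of 15 genes of pyruvate dehydrogenase and the citric acid cycle, 3 were called higher and 0 lower in surface glia relative to neurons, where 10.4% of all probe sets were called higher. Pdk, the kinase that switches pyruvate dehydrogenase off, averaged 11.59 in surface glia, 9.23 in all glia and 7.59 in neurons, against 10.49 in whole brain. It was higher in surface glia by 4.0 ± 0.29 than in neurons and by 2.35 ± 0.29 than in all glia. Idh, the NADP-dependent isocitrate dehydrogenase, was higher by 1.77 ± 0.22 than in neurons, and ScsbetaG, a succinyl-CoA ligase subunit, by 1.03 ± 0.28. Against whole brain, 2 of the 15 were called higher and 2 lower in surface glia. The counts were 1 and 3 in all glia, and 0 and 4 in neurons. The shares of all probe sets called higher were 31.6%, 24.6% and 3.79%, and those called lower were 19.3%, 14.8% and 9.83%. Idh3g and Ogdh, both of the cycle, were called lower than in whole brain in each of the 3 sorted groups, Idh3g by 3.17, 3.05 and 2.33. The difference between these lists and the subunits was not tested.

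Of 10 mitochondrial carriers and pores, 2 were called higher in surface glia relative to neurons, where 10.4% of all probe sets were. Mpcp1, a phosphate carrier, was higher by 1.62 ± 0.43. In surface glia 4 of the 10 were higher and 1 lower than in whole brain, where 31.6% of all probe sets were called higher and 19.3% lower. The pore gene Porin2 was higher than in whole brain by 2.25, 1.96 and 1.28 in surface glia, all glia and neurons. Of 9 genes of mitochondrial expression, 1 was higher and 1 lower in surface glia relative to neurons, PolG1 by 1.22 and PolrMT by -1.15. The shares of all probe sets in that comparison were 10.4% higher and 15% lower. Of 4 genes of defence against reactive oxygen, Cat, the catalase, was called higher in surface glia relative to neurons, by 1.49 ± 0.30. Trx2 was called lower in all glia and neurons than in whole brain, by 1.45 and 1.57, where 14.8% and 9.83% of all probe sets were called lower. Dhod, which passes electrons to ubiquinone from pyrimidine synthesis, fell by 1.42, 1.36 and 1.06 in surface glia, all glia and neurons against whole brain.

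Markers of other cell types varied beside these values. For each list summed here, signals were added on the linear scale and the sum put in log2, so the brightest markers weigh most. The sum of 11 muscle markers ranged from 10.56 to 14.93 in surface glia and 8.91 to 10.63 in all glia. It ranged from 8.31 to 9.88 in neurons and 8.74 to 9.09 in whole brain. Of the muscle markers, TpnC4 and fln were within the negative controls in surface glia. Fat body markers, 8 in number, summed to 13.13 to 14.35, 11.69 to 12.41, 9.96 to 10.28 and 11.27 to 11.85 in the same order, with Fbp1 within the controls in surface glia. Neuron markers, 9 measured, summed to 14.22 to 15.63 in surface glia, 15.43 to 15.85 in all glia, 15.84 to 15.98 in neurons and 15.68 to 15.77 in whole brain, and none was within the controls in any group. Glia markers, 11 in number, summed to 14.62 to 15.02, 13.74 to 14.75, 11.76 to 12.86 and 14.87 to 15.25 in the same order. Among them, Gat was within the controls in surface glia and all glia. Testis and sperm markers, 8 in number, had 5, 5, 5 and 4 members within the controls. The part of these cell types in the results above was not tested.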

How the data were processed

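Expression was measured on 20 Affymetrix arrays, 5 in each of 4 groups. The deposited values are on a log2 scale. Per the submitters' processing notes, the tools were RMA, affy and limma, with neither versions nor order given. The annotation build is not given in the sources used here, and no column was left unused. RNA was amplified and biotin-labelled before hybridisation, per the labels' protocols. Arrays carry no read depth, and their number limits the precision.

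After removal of 183 control probe sets, 18769 entered the tests. Gene names came from the platform annotation, where 13647 probe sets had 1 symbol, 402 several and 4720 none, and 4 probe sets of these genes with several symbols were not used. limma 3.58.1 in R 4.3.3 fitted 1 mean per group over all 20 arrays, with eBayes and Benjamini-Hochberg adjustment over all probe sets of each of the 6 comparisons. A call needed a log2 difference of at least 1 together with an adjusted p under 0.05. A probe set was within the negative controls where it did not exceed, on any array of a group, the 95th percentile of 44 control probe sets. A difference against a group within the controls is given as a lower limit, computed from that percentile. The fit was tested on simulated data. Tables and figures were made with pandas 2.3.3, numpy 2.4.6 and matplotlib 3.10.9 in Python 3.11.15.

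The genes and lists were chosen with earlier results of these data known. Genes named in the text were a fixed set of core subunits, up to 2 of the largest calls per complex and comparison, calls that oppose their complex, copies with their partners, assembly factors, genes within the controls in every group and, from the other lists, up to 3 of the largest calls per comparison. ND-13A, the 4 subunits that passed without a minimum, and the uncalled genes outside the symbol rule were named after their values were seen. Replicates came from different bottles and days, per the labels. Alternatives covered a second normalization, centring, the arrays in the fit, a replicate block, arrays left out, the choice of probe set, a filter on dim probe sets, the minimum difference and the estimate of spread.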

Additional observations from a re-analysis of the deposited data

Results flagged for a closer look

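In 12 of 144 groups of 5 arrays examined (8.33%), the highest or lowest array lay farther from the others than Dixon's 95% critical value of 0.71 allows, which chance gives in about 1 in 20 groups. No cause was tested.

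The median over all subunits relative to whole brain was -0.40 in replicate 1 of all glia, where the other 4 arrays lay between -0.84 and -0.75. Sdhaf3 was 6.68 in replicate 2 of all glia, where the others had 7.53 to 7.74. In replicate 4 of surface glia, COX7A was 13.16 (others 12.09 to 12.29) and ATPsynC was 12.22 (others 12.62 to 12.76). COX7AL2 was 9.45 in replicate 3 of surface glia, where the others had 4.10 to 5.61.

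Replicate 3 of neurons stood apart for ATPsynC at 12.79 (others 12.51 to 12.58), for ND-PDSW at 8.74 (others 7.95 to 8.11) and for UQCR-14L at 3.22 (others 3.39 to 3.45). COX7AL was 3.59 in replicate 2 of neurons (others 3.80 to 3.87). In whole brain, ATPsynbeta was 11.05 in replicate 4 (others 10.74 to 10.79), COX4 was 11.97 in replicate 5 (others 12.09 to 12.13) and SdhBL was 3.18 in replicate 5 (others 2.75 to 2.85).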

How the results depend on the processing

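Of 91 calls of the 73 genes over the 6 comparisons, all 91 held with the replicate block, with the trend and robust options and with the probe set highest in whole brain, an alternative chosen after seeing the data like the mean of probe sets. Calls lost numbered 26 under a second quantile normalization, 5 under centring, 3 in fits of 2 groups alone and 7 with all glia 4 and surface glia 4 both left out. The causes were not tested.

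With the probe set without a letter suffix, COX7C reversed against whole brain to 0.78 in surface glia, 0.08 in all glia and 1.68 in neurons, on a probe set above the negative controls on 1, 1 and 3 of the 5 arrays of these groups and 1 of 5 in whole brain. Then 1 gene was called higher in neurons, and the complex IV medians became -0.037 in all glia and 0.14 in neurons. With the mean of a gene's probe sets, ATPsyngamma (-0.19) and ND-B17 (-1.26) reversed in all glia minus whole brain, 1 subunit was called higher there, and the median over the 73 genes was -0.45 in all glia and -0.57 in neurons.

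With a second quantile normalization, genes and subunits called higher numbered 6 and 5 in surface glia minus neurons, 2 and 2 in all glia minus neurons, 5 and 5 in all glia minus whole brain and 1 and 1 in neurons minus whole brain, and 5 subunits were called higher in surface glia minus whole brain. The all glia minus whole brain median was -0.071. Complex medians were -0.69 for complex I in surface glia and -0.77 in all glia, 0.032 for complex II in all glia, 0.51 for complex III in neurons, 0.13, 0.18 and 0.053 for complex IV in surface glia, all glia and neurons, and -0.091 and -0.34 for complex V in all glia and neurons. With each array centred, 0 genes and 0 subunits were called higher in all glia minus neurons (median -0.032), 1 subunit in all glia minus whole brain, and 1 gene and 1 subunit in neurons minus whole brain (median -0.19), with complex V at -0.38 in neurons.

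In fits of 2 groups alone, 0 genes and 0 subunits were called higher in all glia minus neurons, 2 genes and 1 subunit in neurons minus whole brain and 1 gene in surface glia minus neurons, and 0 genes were called lower in surface glia minus all glia. With both 4s left out, 6 genes and 1 subunit were called higher in all glia minus whole brain and 1 gene in surface glia minus neurons, while 1 subunit was called lower in surface glia minus neurons, and 2 genes and 1 subunit in surface glia minus all glia. With no minimum difference, genes and subunits called higher numbered 15 and 4 in surface glia minus neurons, 19 and 6 in surface glia minus whole brain, 4 and 3 in all glia minus neurons, 19 and 7 in all glia minus whole brain and 7 and 5 in neurons minus whole brain. With dim probe sets left out, 3 and 6 genes were called higher in surface glia and all glia minus whole brain, and medians were -0.54, -0.49 and -0.57 in surface glia, all glia and neurons.

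With subunits in place of all 73 genes, medians against whole brain were -0.59, -0.62 and -0.72 in surface glia, all glia and neurons. Calls higher then numbered 0 in surface glia and 3 in all glia minus whole brain, surface glia minus neurons had 0 higher and 0 lower, and surface glia minus all glia 0 lower. With copies and the assembly factor counted in, complex I medians were -0.83, -0.96 and -0.93 in surface glia, all glia and neurons, complex III was 0.62 and complex V -0.31 in neurons, and complex IV was 0.15 in surface glia and 0.015 in all glia.

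Leaving out 1 array at a time, calls higher ranged from 0 to 1 subunits and 1 to 4 genes in surface glia minus neurons, 0 to 2 subunits in surface glia minus whole brain, 0 to 1 subunits and 0 to 1 genes in all glia minus neurons, and 0 to 3 subunits and 6 to 12 genes in all glia minus whole brain. Calls lower ranged from 0 to 1 subunits in surface glia minus neurons and 0 to 1 subunits and 0 to 1 genes in all glia minus neurons. Subunits called lower against whole brain ranged from 19 to 20 in surface glia, 18 to 20 in all glia and 20 to 22 in neurons. The SdhB call in all glia minus neurons was lost without all glia 1 or 3, neurons 1, 3, 4 or 5, or whole brain 2 to 5, with adjusted p between 0.0127 and 0.0872 over the 20 fits. COX7AL2 was lost without surface glia 3 or 4 or neurons 1, 3 or 4.

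Replicate numbers 1 to 5 were shared by the groups but did not pair the arrays: same-numbered arrays' deviations correlated at -0.02 to 0.38, over 0.1 in 2 of 5 pairs for surface glia with all glia and in 0 of 5 elsewhere, and 1 to 3 of 5 arrays correlated best with their own number. The replicate block changed no call.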
